A study of Zea mays with 38 samples.

Results

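The features described here are 150 spots of a maize cDNA microarray whose signal was lower in UV-B-treated than in control leaves at 2, 8 and 12 h. They were chosen by these values. On each slide, log2(UV/control) was taken from the deposited intensities and the slide's median was subtracted, which gives the centred ratio. At each time the mean of the slides with UV in Cy5 and the mean of the slides with UV in Cy3 were averaged. Candidates were the 13339 features that were measured on every slide and had no entry in the platform's gene table, of 20196 features in all. The 150 candidates (1.12%) with the smallest maximum over 2, 8 and 12 h became the members. All values at those times therefore describe the choice and carry no test.

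The study asked how leaf transcripts respond to UV-B over a day, with a control group at each time so that changes of the day itself were not taken for a response. Seedling leaves of maize (Zea mays) were irradiated with UV-B for 1, 2, 4, 8 or 12 h, and unirradiated control leaves were taken at each of these times. Inbred B73 is named in the labels of the 1 h and 2 h samples, and the labels of the other times name no inbred. Each slide carried 1 UV and 1 control sample of the same time. There were 4 slides (a to d) per time and 3 at 2 h (a, c and d; slide b was not analysed here), which gave 19 slides, 38 samples and 10 groups. Slides a and b had the UV sample in Cy5, slides c and d had it in Cy3, and so 1 slide alone gave the Cy5 value at 2 h. Nothing in the labels tells if replicate slides hold RNA of different plants or extracts, so p-values measure only the spread between slides, which may be technical. Because RNA came from whole leaves, fewer cells of a type and less transcript per cell cannot be told apart.

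UV-B is the shortest-wavelength part of sunlight that reaches leaves. It damages DNA, RNA and proteins, and plants also sense it as a signal through a dedicated photoreceptor described in Arabidopsis. Leaves under UV-B are known to raise transcripts of sunscreen pigments, repair and protein folding and to lower many transcripts of photosynthesis and growth. Which of these roles the 150 features belong to cannot be read from the files, because the features carry only the identifiers of the cDNA clones that were spotted.

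A channel held between 18795 and 20158 spots, and its median intensity ran from 138059 to 626914. Centring leaves any dependence of the ratio on intensity in place, so each value is also given on a second scale, called normalised: intensities after normexp background correction with an offset of 50 and loess within each slide. Normalised time means average the 2 dye assignments in the same way. Of the 150 members, 146 have normalised values. The other 4, of which 3 have names that begin with VC, carry identifiers of another form than the 146, whose identifiers are letters followed only by digits. For that reason these 4 stayed out of the normalisation and of all tests. On the centred scale these 4 lay between -0.62 and -0.25 at 2, 8 and 12 h.

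The member with the smallest maximum was AI677338, which was also the dimmest of the 146, with a mean log2 intensity of 14.72 over all slides. Its centred ratios were -1.37, -1.19 and -0.88 on slides a, c and d of 2 h and -1.88, -1.24, -1.66 and -1.08 on slides a to d of 8 h. At 12 h they were 0.30, -4.11, -0.13 and -0.51, so that slide b alone carried the 12 h mean of -1.11. AI677338 was lower on 10 of the 11 slides, and its SD over them was 1.15.

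AI977961 came next, with a maximum of -0.61, and was lower on all 11 slides. Its centred ratios were -0.64, -0.87 and -0.63 at 2 h, -0.69, -0.48, -0.55 and -0.90 at 8 h, and -0.44, -0.08, -1.09 and -0.82 at 12 h. BQ620937 was also lower on all 11, at -1.04, -1.21 and -0.82 at 2 h, -1.15, -0.77, -0.86 and -0.84 at 8 h, and -0.78, -0.14, -0.65 and -0.58 at 12 h. In both features slide b gave the weakest value of 12 h.

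Not every leading member agreed over the slides. AI622416 stood at -2.63 on slide a of 2 h, where UV was in Cy5, and at 1.78 and 0.57 on slides c and d, where UV was in Cy3. Its 2 h mean of -0.73 thus came from 1 slide. AW330852 behaved alike at 2 h, with -1.86 on slide a and 0.48 and 0.86 on slides c and d. AI740125 was near 0 on slides a and b of 8 h (0.07 and -0.06) and at -1.50 and -0.74 on slides c and d. Of the 10 leading members, BQ279846, AI977890 and AI622398 were lower on all 11 slides as well, and BQ294245 on 9. In BQ279846 the 8 h mean of -0.995 leaned on slide b, at -2.57, against -0.53, -0.28 and -0.59 on the others. These counts are of centred ratios. On the normalised scale AI622398 stood at -0.33, 0.16, 1.86 and 0.27 on slides a to d of 8 h, a mean of 0.49 with the opposite sign, and BQ279846 at 1.01 on slide c of 2 h.

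**Figure D1:**
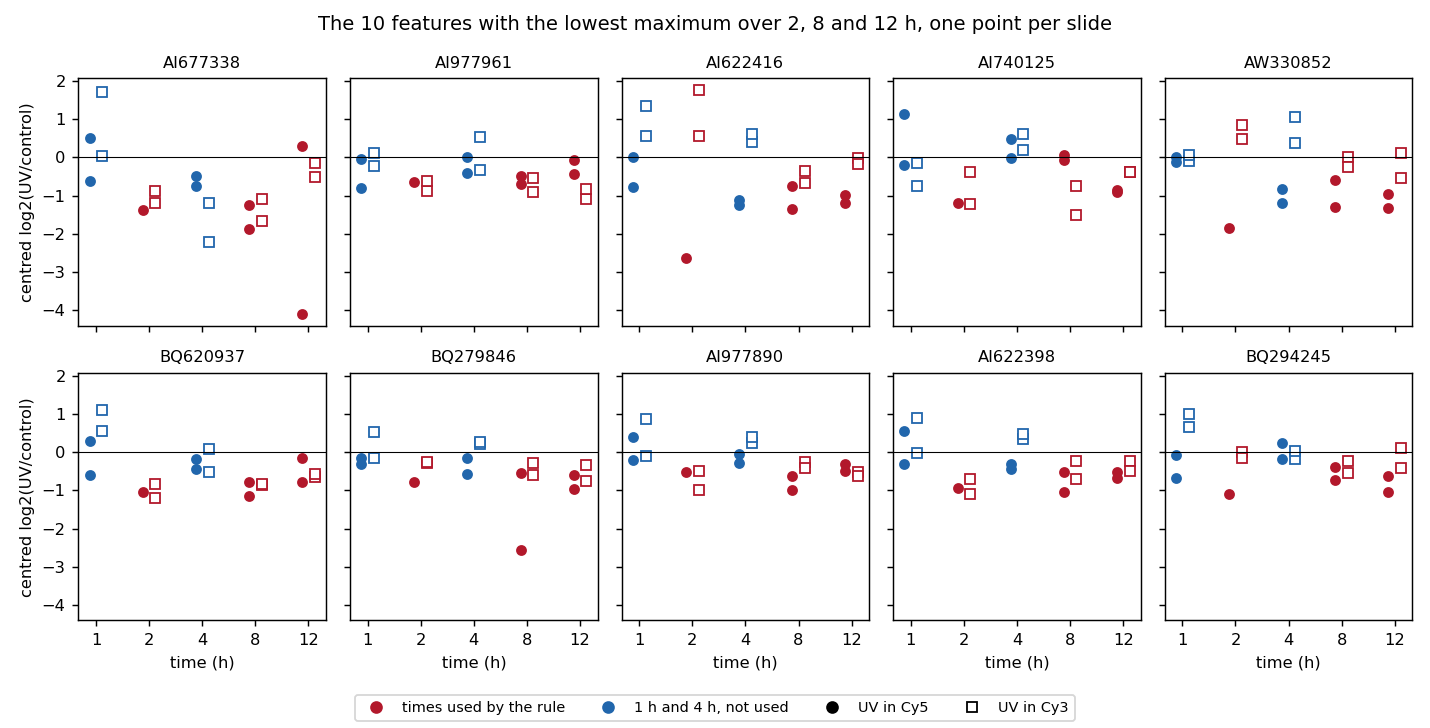
Centred log2(UV/control) of the 10 leading members (vertical axis) by time in hours (horizontal axis), 1 point per slide, filled for UV in Cy5 and open for UV in Cy3, red for the times the rule used and blue for 1 h and 4 h. AI977961 and BQ620937 lie below 0 on all 11 red points, while AI622416 and AW330852 split by dye at 2 h and AI677338 has 1 point at -4.11 at 12 h.

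AI491438 had the smallest SD of all, 0.11 over the 11 slides, with centred ratios of -0.30, -0.44 and -0.41 at 2 h, -0.38, -0.40, -0.22 and -0.20 at 8 h, and -0.55, -0.47, -0.39 and -0.45 at 12 h. BE186287 (SD 0.13) ran from -0.49 to -0.07 and AW438076 (SD 0.13) from -0.53 to -0.07. Loess left these 3 lower, with normalised time means of -0.28, -0.32 and -0.59 in AI491438, -0.49, -0.43 and -0.32 in BE186287, and -0.37, -0.31 and -0.32 in AW438076 at 2, 8 and 12 h. At the other end stood AI677338, AI622416 (SD 1.13) and AI691267 (SD 1.01), the last of which ran from -3.17 on slide a of 8 h to 0.34 on slide c of 12 h.

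Across the 150 members, 61 were lower in UV on all 11 slides and 136 on at least 9. Among the 13339 candidates 0.937% were lower on all 11. The median member was lower on 10 slides and the median candidate on 5, and the member with the fewest, AI920398, was lower on 6. Both dye assignments gave a mean below 0 over the 11 slides in 145 members, and at each of the 3 times separately in 117. The median SD over the 11 slides was 0.32 in the members and 0.38 in the candidates.

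The members' median centred ratios at 2, 8 and 12 h were -0.41, -0.40 and -0.32, against -0.0079, 0.043 and 0.015 in the candidates. By slide the members' median lay between -0.56 (slide c of 2 h) and -0.26 (slide b of 12 h) at these times. The share of members below 0 on a slide was lowest on slide b of 12 h (113 of 150) and highest on slide a of 12 h (148 of 150).

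**Figure D2:**
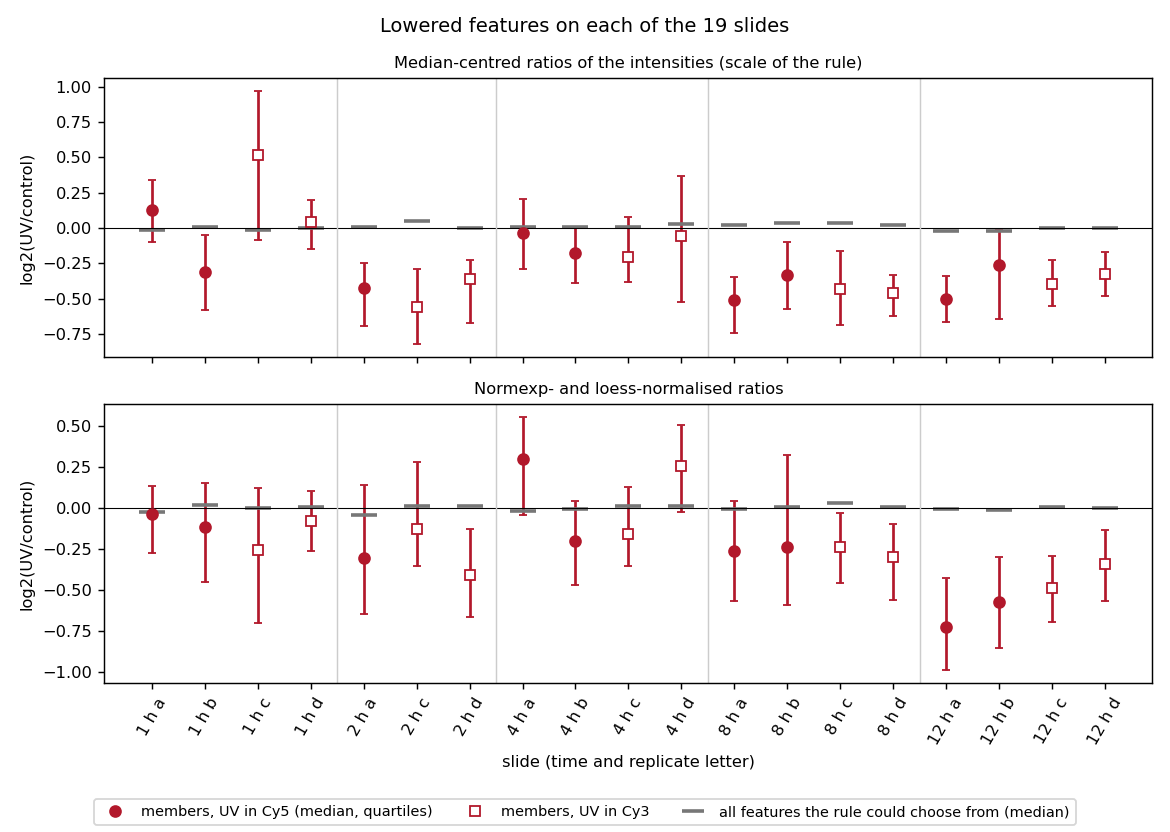
Median and quartiles of log2(UV/control) over the members on each of the 19 slides, on the centred scale (upper panel) and the normalised scale (lower panel), filled for UV in Cy5 and open for UV in Cy3, with the median of all candidates as a grey bar. All 11 slides of 2, 8 and 12 h have member medians below 0 on both scales, while the centred medians at 1 h and the normalised medians at 4 h lie on both sides of 0.

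The normalised scale gave another picture of the same features. There the members' medians were -0.24, -0.26 and -0.52, so 12 h was the time with the strongest value rather than the weakest. All 146 lay below 0 at 12 h, but 110 did at 2 h and 112 at 8 h. Below 0 at all of 2, 8 and 12 h were 95 of 146 (65.1%), against 22.3% of the candidates. On the authors' processed values, of unknown scale, 105 of 146 (71.9%) lay below 0 at the 3 times, against 23.1% of the candidates.

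Signal strength moved with this difference between the scales. The median member had a mean log2 intensity of 16.91, against 18.05 for the median candidate. By comparison, the 150 features chosen by the opposite rule, raised at 2, 8 and 12 h, had a median of 19.25. Spots of sequences foreign to maize, such as a bacterial resistance gene, give a measure of unspecific signal, and the brightest of 6 stood at 16.76. Above it lay 86 of 146 members (58.9%), 74.1% of the candidates and 149 of 149 raised features.

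The candidates were then split by intensity into the 4414 dimmest, the 4413 next and the 4414 brightest, which held 93, 38 and 15 members. Among the dimmest candidates the centred median of all features was itself -0.57 at 2 h and -0.68 at 8 h, lower than that of the 93 dim members (-0.49 and -0.45). At 12 h it was 0.12, and the dim members stood at -0.30. On the normalised scale the medians of the dim members at 2, 8 and 12 h were -0.044, -0.099 and -0.52. The values at 2 h and 8 h of the dim members thus did not stand below those of equally dim features on the centred scale.

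Most members of higher intensity lay below 0 on both scales. Of the 38 of middle intensity, 37 did at 2 h, 37 at 8 h and 38 at 12 h on the normalised scale. The 38 of middle intensity had normalised medians of -0.46, -0.43 and -0.47 at 2, 8 and 12 h, and the 15 bright ones -0.70, -0.64 and -0.73, while the candidates of the same intensity lay between -0.033 and 0.0096. All 15 bright members lay below 0 on the normalised scale at each of the 3 times. These are the slides the rule used, and the bright candidates had centred medians of 0.29 at 2 h and 0.32 at 8 h. Bright members past the limit of the rule thus already lay below candidates of their intensity. Their normalised values describe the choice and are no separate evidence. BE025412, the brightest (21.18), had centred ratios of -0.17, 0.33 and -1.36 at 2 h, -0.01, -0.37, -0.10 and -0.61 at 8 h, and -0.95, -1.06, -0.95 and -1.20 at 12 h. Its normalised ratios were -0.56, -0.27 and -1.48, then -0.42, -0.75, -0.41 and -0.81, then -0.80, -0.73, -0.91 and -1.31, below 0 on every one of these slides. BE056250 and AI734499, the next brightest, had normalised time means of -0.74, -0.77 and -0.44, and of -0.73, -0.61 and -0.69. Among the dimmest, AI666004 stood at -0.15, -0.70 and -0.35 and BQ486462 at -0.0041, 0.52 and -0.52, so the latter lay above 0 at 8 h once normalised.

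**Figure D3:**
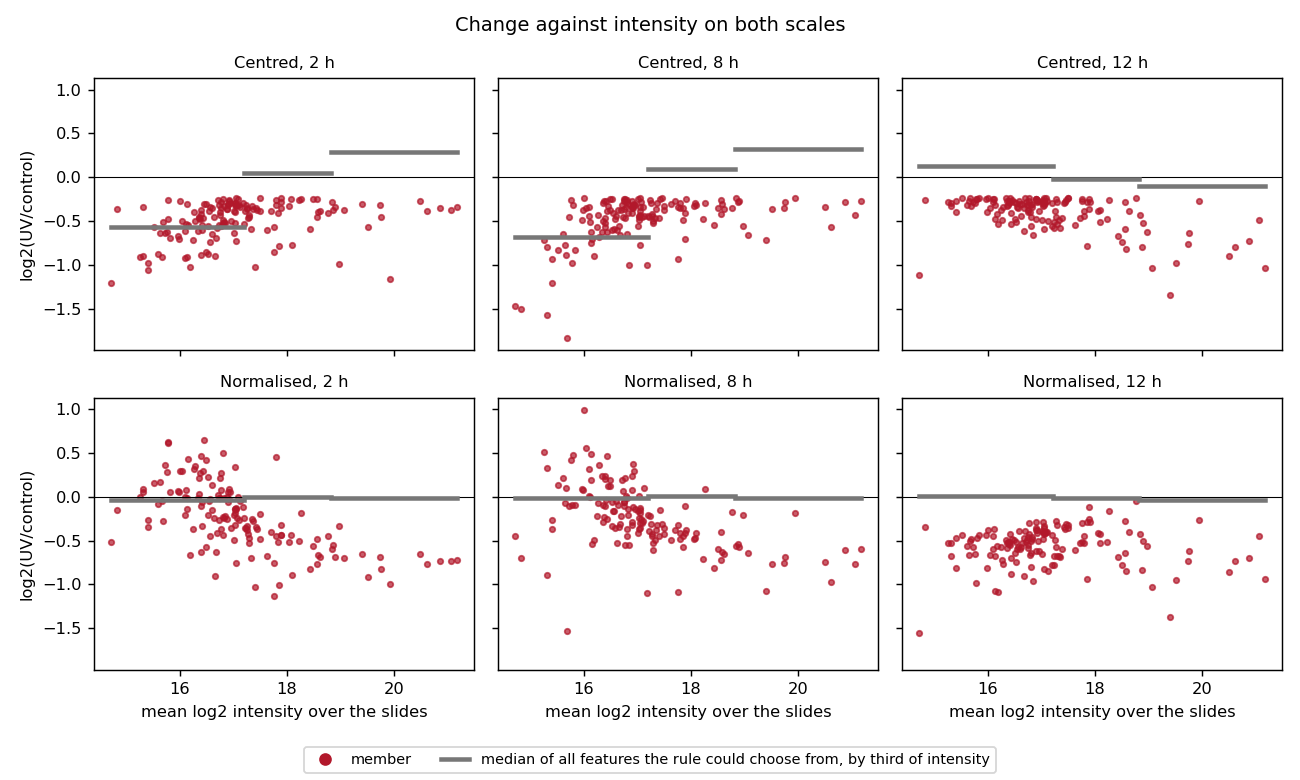
Mean log2(UV/control) of each member (points, vertical axis) against its mean log2 intensity over all slides (horizontal axis) at 2, 8 and 12 h, centred (upper row) and normalised (lower row), with grey bars for the median of all candidates in 3 intensity ranges. In the upper row the grey bars of the dim range lie at -0.57 and -0.68 at 2 h and 8 h, among the members, and in the lower row all grey bars lie near 0 while the bright members stay below them.

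The limma fit over all features called few features lower at these times, and the members' calls are a description, since the rule used the same slides. At 2 h 1.41% of 19979 features were called lower, with 12 of the 146 members. At 8 h it was 2.48%, with 28 members, and 1 member was called higher (5.04% of all features). At 12 h it was 2.0%, with 30 members.

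To see slides that took no part in the choice, the choice was repeated without each slide in turn and read on the slide left out. For 10 of the 11 slides the centred median of the 150 features on that slide lay between -0.50 and -0.27, with 109 to 145 of 150 below 0. The candidates' median on those slides lay between -0.019 and 0.051. The dimmest candidates, however, had centred medians of -0.57 at 2 h, -0.68 at 8 h and 0.12 at 12 h. Their values on each slide left out were not compared. Whether the chosen features stood below candidates of the same intensity on those slides was therefore not tested. On slide b of 12 h the centred median of the chosen features was 0.17, with 60 of 150 (40.0%) below 0, against 51.6% of the candidates. Only 76 of the members were chosen again without that slide. When the same was done on the normalised scale, the median on the slide left out lay between -0.60 and -0.26 for all 11 slides, slide b of 12 h included (-0.52), and 82.7% to 97.3% of the chosen features were below 0. That choice shared 40 of its 150 features with the members.

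**Figure D4:**
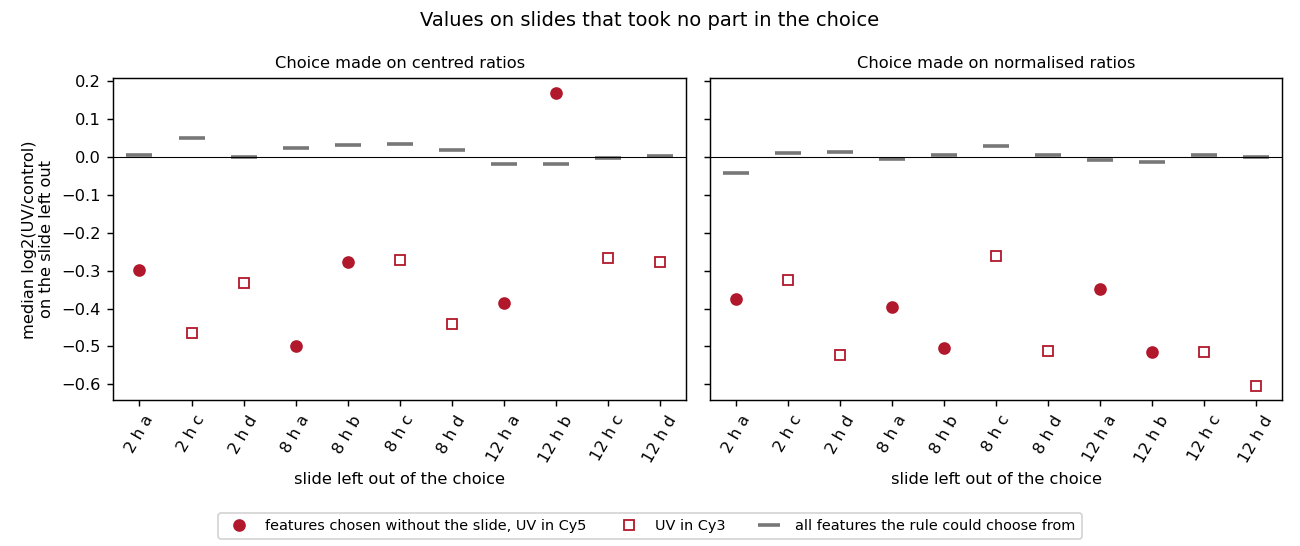
Median log2(UV/control), on the slide left out, of the 150 features chosen without it (vertical axis) for each of the 11 slides (horizontal axis), chosen and read on centred ratios (left) and normalised ratios (right), filled for UV in Cy5 and open for UV in Cy3, with all candidates in grey. Slide b of 12 h stands at 0.17 on the left and at -0.52 on the right, and every other slide lies below 0 in both panels.

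At 1 h, which the rule did not use, the members' direction depended on the scale: the median was 0.12 on the centred scale, with 52 of 150 below 0 (45.1% of the candidates), and -0.14 on the normalised scale, with 99 of 146 below 0 (51.5% of the candidates). Slides differed too. Centred slide medians were 0.13, -0.31, 0.51 and 0.043 on slides a to d, and normalised ones -0.038, -0.11, -0.25 and -0.081. Without slide c the fitted median was -0.0087, with 75 of 146 below 0.

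No feature passed the adjusted threshold of 0.05 at 1 h in limma's test (0.0% of 19979, smallest adjusted p 0.289). At an unadjusted p under 0.05 there were 1562 features. Of the members 18 were lower (12.3%, against 3.45% of all features) and 2 higher (1.4%, against 4.36%). AI603703 had the lowest fitted change, -0.89 ± 0.19 (SE, n = 4 slides, with the spread per feature pooled over all 19 slides; limma adjusted p = 0.365). Its centred ratios at 1 h were -1.10, -0.44, -0.45 and -0.18 and its normalised ones -1.30, -0.62, -1.35 and -0.28, below 0 on each slide. AI637116 stood at -0.79 ± 0.20 (limma adjusted p = 0.426), also below 0 on each slide on both scales. AI977961 stood at -0.87 ± 0.24 (limma adjusted p = 0.493) and leaned on slide c, with normalised ratios of -0.43, -0.60, -2.09 and -0.38. Its centred ratio on slide c was 0.11. Highest was AW453171 at 1.01 ± 0.38 (limma adjusted p = 0.595), where slide c at 3.44 stood far from 0.38, -0.09 and 0.02 on the centred scale. Without slide c AW453171 stood at 0.18. AW179382 followed at 0.79 ± 0.43, and stood at 0.12 without slide c and at -0.062 on the matrix values. AW091278 stood at 0.71 ± 0.25, and at 0.50 to 0.91 with a slide left out.

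At 4 h the scales again gave opposite directions: the median was -0.094 on the centred scale, with 102 of 150 below 0 (47.0% of the candidates), and 0.037 on the normalised scale, with 52 of 146 below 0 (51.5% of the candidates). Among the dimmest candidates the centred median at 4 h was -0.46, lower than that of the 93 dim members (-0.21). On the normalised scale it was -0.0095, against 0.11 in the dim members. The members' centred slide medians were -0.034, -0.17, -0.20 and -0.059 on slides a to d, all below 0. The normalised ones were 0.30 and 0.25 on slides a and d and -0.20 and -0.16 on slides b and c. The fitted median turned to -0.032 without slide a and to -0.025 without slide d. On the normalised scale the slides of this time thus fell into a pair above and a pair below 0, each with 1 slide of each dye assignment.

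No feature passed at 4 h in limma's test (0.0% of 19979, smallest adjusted p 0.315). At an unadjusted p under 0.05 there were 965 features. Of the members 3 were lower (2.1%, against 2.9% of all features) and 2 higher (1.4%, against 1.93%). On median-centred intensities without loess 787 of 19979 features were called, 786 of them lower, and 3 of the 146 members, no larger a share. AI691267 had the lowest fitted change, -0.91 ± 0.41 (SE, n = 4 slides; limma adjusted p above 0.99), with normalised ratios of -3.16, -1.62, 1.47 and -0.34. AI715021 stood at -0.62 ± 0.21 (limma adjusted p = 0.841) and was called on centred intensities, at -1.17 ± 0.29 (limma adjusted p = 0.0379), with centred ratios of -1.19, -0.79, -0.85 and -1.84. Its mean log2 level at 4 h was 15.34 in control and 14.72 in UV leaves, below the brightest foreign spot (16.76). AI901669 stood at -0.66 ± 0.38. BU093090 was highest at 0.61 ± 0.22 (limma adjusted p = 0.867), then AW179391 at 0.55 ± 0.26 and AI941809 at 0.54 ± 0.28, and all 3 had centred means below 0 at 4 h (-0.046, -0.072 and -0.44). Without slide d BU093090 stood at 0.31 and AI941809 at -0.0093, and without slide a AW179391 stood at 0.36. AI715021 stood at -0.40 without slide d, and AI691267 at -0.51 without slide a. The UV response at 4 h minus that at 1 h, a contrast added later, gave no called feature either (0.0% of 19979). At an unadjusted p under 0.05 there were 1282 features. Of the members 12 were higher (8.2%, against 2.53% of all features) and 6 lower (4.1%, against 3.89%).

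The 2 dye assignments offer a further reading that the rule averaged out. The fit's dye effect is the distance of the slides with UV in Cy5 from the mean of both dye assignments. It was called in 26 of 146 members (17.8%), against 22.7% of all features. Above 0 were 5 of the 146 members, against 9.09% of all features, and below 0 were 21 (14.4%), against 13.7% of all. With the slides of 1 h and 4 h alone 291 features were called, 4 of them members. AI691267 had the largest, -1.12 ± 0.19 (n = 19 slides, limma adjusted p = 0.0020), which was not called on centred intensities (-0.52 ± 0.16, adjusted p = 0.0615 in limma) or with the 1 h and 4 h slides alone (-0.96 ± 0.32, adjusted p = 0.171 in limma). At 8 h its normalised ratios were -3.89 and -2.12 on the Cy5 slides and -0.12 and 0.02 on the Cy3 slides. AI978067 (-0.90 ± 0.16, limma adjusted p = 0.0022) and AI622416 (-0.75 ± 0.23, limma adjusted p = 0.0278) had the next largest effects.

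Levels of the control and UV samples were then taken apart, each member set against its own mean control level. In control leaves the median member stood at -0.18 at 1 h, -0.023 at 2 h, 0.053 at 4 h, 0.096 at 8 h and 0.18 at 12 h on the log2 scale, and the candidates between -0.032 and 0.048. In UV leaves the members stood at -0.31, -0.32, 0.14, -0.22 and -0.38. At 12 h 105 of 146 members lay above their control mean in control leaves and 20 of 146 in UV leaves. The controls of 2, 8 and 12 h are denominators of the ratios the rule used and enter the mean control level, so all of these values, those of 1 h and 4 h included, are tied to the choice and are a description.

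**Figure D5:**
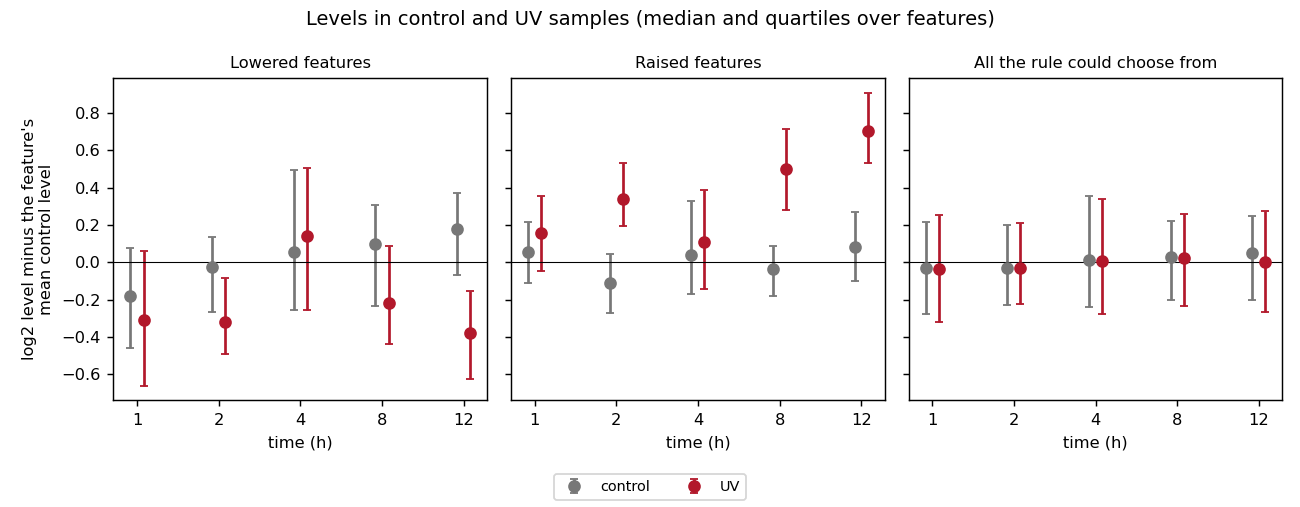
Log2 level minus the feature's mean control level (vertical axis, median and quartiles over features) by time in hours, in control samples (grey) and UV samples (red), for the members, the raised features and all candidates. The members' control median runs from -0.18 at 1 h to 0.18 at 12 h, and their UV median is -0.38 at 12 h, while all candidates stay near 0.

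Between control leaves of 4 h and 1 h, neither used by the rule, limma's separate-channel fit called 13 of 146 members (8.9%), against 13.6% of 14206 features. Higher at 4 h were 8 of the 146 members, against 6.08% of all features, and lower were 5 (3.4%), against 7.52% of all. The number of calls moved with the slides in the fit, among all features (1933 in the full fit) as among the members. Without slide b, c or d of 4 h 2, 0 and 3 members were called, with 368, 355 and 370 of all features. Without slide b or c of 1 h 4 members each were called (1017 and 887 of all). Without slide a or d of 1 h there were 12 each (1736 and 1706 of all), and without slide a of 4 h 35 (3788 of all). AI637028 rose by 2.21 ± 0.63 on the log2 scale (n = 4 slides a time, limma adjusted p = 0.0216), from 17.49 ± 0.24 to 19.69 ± 1.76 (mean log2 level ± SD). It was not called without slide b, c or d of 4 h or slide b or c of 1 h (adjusted p of 0.0553 to 0.109 in limma), where the estimate was 1.82 to 2.19. AW360458 fell by 2.58 ± 0.62 (limma adjusted p = 0.0103), from 17.66 ± 0.22 to 15.08 ± 2.09, and was not called without slide c of 4 h (-1.79, limma adjusted p = 0.0611). AW066354 fell by 2.32 ± 0.59 (limma adjusted p = 0.0126), from 16.97 ± 0.97 to 14.65 ± 0.92, with no call without slide b, c or d of 4 h (-2.22 to -2.13, adjusted p of 0.0549 to 0.0565 in limma). The mean 4 h control levels of AW360458 and AW066354 lay below the brightest foreign spot (16.76), where signal may be unspecific. The largest estimates among the others were AI964564 (2.30 ± 0.81, limma adjusted p = 0.0551), AW179382 (2.26 ± 0.88, limma adjusted p = 0.0814) and AI920398 (-1.70 ± 1.51, limma adjusted p = 0.473). At 1 h the mean control levels of AI964564 (16.07) and AW179382 (14.60) also lay below that spot. Without slide a of 4 h AI964564 stood at 3.66 ± 0.58 and AW179382 at 2.54 ± 0.94, both called (limma adjusted p = 3.5e-05 and 0.0465). Without slide c of 1 h AW179382 stood at 0.88 (limma adjusted p = 0.419), and without slide d of 1 h at 2.86 (limma adjusted p = 0.0401). Without slide b of 4 h AI920398 stood at -2.97.

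Apart from leaving out features of the platform's gene table, the rule did not use identity, and it did not use place on the array. By the first letters of their identifiers 70 members began with AI (46.7%), 42 with AW (28.0%, against 36.4% of the candidates), 25 with BQ, 7 with BE, 2 with BU and 4 otherwise. They lay in 42 of the 48 printed blocks, with at most 11 in a block, and 22 of the 150 spots were next to another member (40 of 150 among the raised features). Block rows 5, 6 and 8 held 23, 30 and 26 members, which is 1.78%, 2.14% and 2.08% of the candidates in those rows, against 0.23% in block row 2. A part of spot position in the members' values was not tested. A single member, AI920398, matched an entry of the RefSeq gene table, LOC100275582, which gives no gene name beyond the locus GRMZM5G825909. Features of the platform's gene table could not become members, and the share of candidates with a RefSeq match is not given here.

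Named genes with the same values exist among the features that the rule left out for being in the platform's gene table. Of 965 such features measured on every slide, 10 (1.04%) had a maximum at or below that of the last member, about the share chosen among the candidates (1.12%). Their names come from the platform's gene identifiers through the RefSeq gene table. Lowest was BQ164497, sdg110, a SET-domain gene of the histone methyltransferase class, with centred means of -0.42, -0.43 and -0.50 at 2, 8 and 12 h and normalised ones of -0.52, -0.48 and -0.62. It was below 0 on each of the 11 slides, from -0.91 to -0.12. AW330905, CesA-9, a catalytic subunit of cellulose synthase, stood at -0.38, -0.41 and -0.61 centred and at -0.63, -0.68 and -0.61 normalised, and sbe1 (AI820327), a starch branching enzyme, at -0.28, -0.32 and -0.29 centred and at -0.56, -0.58 and -0.32 normalised.

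In other named features the scales parted as they did in the dim members. The profilin gene prf2 (AW453133), whose product binds actin, stood at -0.31, -0.46 and -0.51 centred but at 0.021, -0.022 and -0.64 normalised. GAPN (AW067477), a non-phosphorylating glyceraldehyde-3-phosphate dehydrogenase, stood at -0.50, -0.27 and -0.28 centred and at 0.11, 0.13 and -0.50 normalised. The protein phosphatase gene PP1 (AI691614) stood at -0.25, -1.51 and -0.28 centred and at 0.15, -0.56 and -0.52 normalised. The LIM-domain gene lim1 (AW091076), gar1 (BQ529044), betl2 (AI673919), known from the transfer cells of the kernel, and LOC542318 (AI737641) had means below 0 at 2, 8 and 12 h on both scales. On centred ratios lim1 and gar1 were below 0 on every slide of these times. In contrast, betl2 stood at 0.21 on slide a of 2 h and at 0.21 and 0.11 on slides b and c of 12 h. LOC542318 stood at 0.29 on slide c of 2 h and 0.28 on slide b of 8 h, against -1.72 on slide a of 8 h.

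The limit of the rule cut through a continuous range. Taking the mean over the 3 times in place of the maximum would have kept 4 of the 150. Just inside lay AW179391, AW267171 and BQ529075, with maxima of -0.2324, -0.2321 and -0.2315. Just outside lay AW355929, 707050B1 and BQ164469, at -0.2305, -0.2302 and -0.2282. On the centred scale BQ164469 was lower than most members at 2 h and 8 h (-0.96 and -1.02) and was kept out by its 12 h value. Its normalised ratios at 8 h lay on both sides of 0, at 0.59, 0.41, -0.46 and -0.28 on slides a to d. AW179391, inside, had normalised means of 0.30 and 0.99 at 2 h and 8 h, with the opposite sign to its centred means of -0.27 and -0.24.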

How the data were processed

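Total RNA of UV-B-treated and control maize leaves was measured on 2-colour cDNA slides. The deposited files give 1 linear intensity per spot and channel, gridded with TIGR Spotfinder per the labels. The sources used here do not state if a local background was subtracted. The authors' processed score in the series matrix, of unstated scale and centring, was used as an alternative only. Its log ratios per slide correlated with those of the intensities at r of 0.309 to 0.866.

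Intensities were corrected by normexp (offset 50) and loess (span 0.3) in limma 3.58.1 (R 4.3.3). Spots with special names (155 of 20231 positions) were left out. The model had 5 time means and a dye term, with 13 residual and 2.75 prior degrees of freedom, and tested 19979 features with values on at least 2 slides of every time. Benjamini-Hochberg adjustment ran over all features tested (threshold 0.05). Control levels at 4 h and 1 h were compared with the separate-channel fit after Aquantile (intraspot correlation 0.786, 14206 features). Pairing by slide comes from the design text. Deviations of UV and control channels of 1 slide from their group means correlated at r of 0.656 to 0.922, and both share spots. On simulated data for 4 h with 200 of 14206 features changed, the fit recovered 78% of log2 changes of 1 and 98% of changes of 2, with 7 false calls. The simulated noise was normal and independent for each feature and slide. It held no shifts shared by many features of a slide, so these rates may not hold for the real slides.

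The members and all lists were chosen with earlier results of these data known. Named members are the 10 with the smallest maximum, the 3 at each extreme of change at 1 h and 4 h, of brightness, of slide SD and of control change, the 3 largest dye effects, 3 on each side of the limit, and the features of the gene table past it. As a check of the tissue, 14 of 15 leaf (photosynthesis) features, 12 of 14 kernel features and 0 of 1 root or pollen features lay above the brightest foreign spot, so that limit does not tell tissues apart. No sequence of the clones was used here. The number of slides limits the precision. Alternatives are those given in the closing section. Tables were handled with Python 3.11.15, pandas 2.3.3 and numpy 2.4.6, and figures were drawn with matplotlib 3.10.9.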

Additional observations from a re-analysis of the deposited data

Results flagged for a closer look

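In 5 of 160 sets of 4 slides (3.125%), over 40 features, 1 slide stood further from the others than Dixon's 95% limit allows (0.829 of the range). Many of these features were named for extreme values, and the rule used the 8 h and 12 h ratios. The limit's chance rate of about 1 in 20 therefore does not apply, and the flags are a description. BQ279846 at 8 h had -2.57 on slide b, the next lowest being -0.59. AW453171 had 3.44 on slide c of 1 h, the next highest being 0.38, and 0.52 on slide c of 4 h, the next highest being -0.020. AI941809 at 4 h had -0.99 on slide d, the next lowest being -0.27. BQ164469, just outside the limit of the rule, had -0.60 on slide b of 8 h, where the other slides lay between -1.18 and -1.15. All values are centred log2(UV/control).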

How the results depend on the processing

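At 1 h, limma called 0 features in the fit reported and 1 on median-centred intensities, and leaving out a slide gave 0 to 3. At 4 h it called 0 and 787 on median-centred intensities, and 0 to 1 with a slide left out. None of the 146 members was called in any of these but the 787, which held 3. Fitting the channels without the pairing (no replicate block) gave 0 calls at both times, with 73 and 25 features at an unadjusted p under 0.05. The dye effect was called in 4545 features, in 1403 on centred intensities and in 291 with the slides of 1 h and 4 h alone. Control leaves of 4 h and 1 h differed in 1933 features and in 355 to 3788 with a slide left out.

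The members' median at 1 h was -0.14 as reported and 0.12 on centred intensities, and lay between -0.18 and -0.0087 with a slide left out. Of the 150 members, repeating the choice kept 40 on normalised ratios, 34 on the matrix values, 4 with the mean over times, and 76 to 135 with a slide left out. On normalised ratios without slides a, c and d of 2 h it kept 38, 41 and 41, without slides a to d of 8 h 38, 45, 39 and 42, and without slides a to d of 12 h 41, 40, 40 and 43. A choice among features above the brightest foreign spot keeps the 86 members above it by construction. The last 2 kinds of choice were added after seeing the data. The causes were not tested. Of the values of single named members that were not called, 1 of 69 at 1 h and 5 of 68 at 4 h changed sign under an alternative. Weak signal limits the dim members: the brightest foreign spot was exceeded by 86 of 146 and not by the others.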
